A study of Mus musculus with 9 samples.

Results

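The Slc25 mitochondrial carrier family was examined in kidney RNA from wild-type C57BL/6 mice (4 libraries) and from C57BL/6 mice labelled Bmal1 -/- (5 libraries). Members were the rows whose gene symbol begins with Slc25a and a number, plus the uncoupling proteins Ucp1, Ucp2 and Ucp3. This gave 50 genes of the 23282 symbols measured, and 38 of them passed the filter on low values and were tested, against 13481 symbols in all. RNA was profiled by 3′ mRNA sequencing (QuantSeq), which reads a tag near the end of each transcript, so levels of different genes can be set side by side without correction for length. The labels give no hour of sampling, sex, age or treatment, say neither which part of Bmal1 was removed nor in which cells, and tie no library to an animal. Each p-value therefore measures the spread between these libraries, which may be technical.

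Mitochondrial carriers are small proteins of the inner mitochondrial membrane that swap or import solutes between cytosol and matrix. They pass ATP against ADP, phosphate, citrate and other acids of the citrate cycle, amino acids, acylcarnitines, cofactors and metals, and the uncoupling proteins let protons leak back. The proximal tubule of the kidney is rich in mitochondria and burns fatty acids, so it depends on the carnitine, phosphate and adenine nucleotide carriers. Bmal1 (gene symbol Arntl) is the clock transcription factor that pairs with Clock or Npas2 and binds E-box sites.

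The deposited values are log2(x + 1), where x is the authors' adjusted number of reads. Adjusted totals were 11765219 to 13486444 per library, and the raw depth is unknown. Arntl was at 6.26 to 7.06 in wild type and 5.65 to 5.99 in knockout, with no overlap (difference -0.84, SE 0.21, adjusted p = 0.0112 by the limma test described below), although a 3′ tag outside the deleted part would not check the genotype. Levels of cell type markers also differed between libraries. The 13 proximal tubule markers, all detected in every library, summed to 137131 to 170224 adjusted reads in wild type and 102918 to 121592 in knockout, with 5 of 13 lower and none higher by the same test. Of the 13 markers 3 had differences above 0. The 10 markers of the thick limb and distal nephron summed to 22422 to 40839 in wild type and 28748 to 39117 in knockout, with overlap. Of these 10 markers 6 rose, and 3, among them Umod at -0.47, lay below 0 without passing. Of 6 endothelial markers 2 rose, and of 6 macrophage markers 1 fell. Over all genes 8.2% were called lower and 6.16% higher. Ribosomal precursor Rn45s took 5.07% to 11.3% of adjusted reads in wild type and 6.83% to 14.4% in knockout. Genes of fat cells were high in knockout 5 and, less so, in knockout 2, as given with Ucp1.

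The carriers as a group took 0.407% to 0.500% of adjusted reads in wild type and 0.372% to 0.490% in knockout, so the groups overlapped. In these bulk samples fewer cells of a type and less RNA per cell cannot be told apart. The phosphate carrier Slc25a3 led the family with a level of 13.43 ± 0.11 (SD, n = 4) in wild type. It was followed by Slc25a39, which imports glutathione (12.97 ± 0.19), the adenine nucleotide translocases Slc25a4 (12.88 ± 0.15) and Slc25a5 (12.51 ± 0.34), and the NAD carrier Slc25a51 (12.01 ± 0.078). These 5 genes held 64.0% of the family's adjusted reads in wild type and 63.4% in knockout. All 38 tested members had an x of at least 10 in each of the 9 libraries, so none entered the test through a single genotype.

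**Figure D1:**
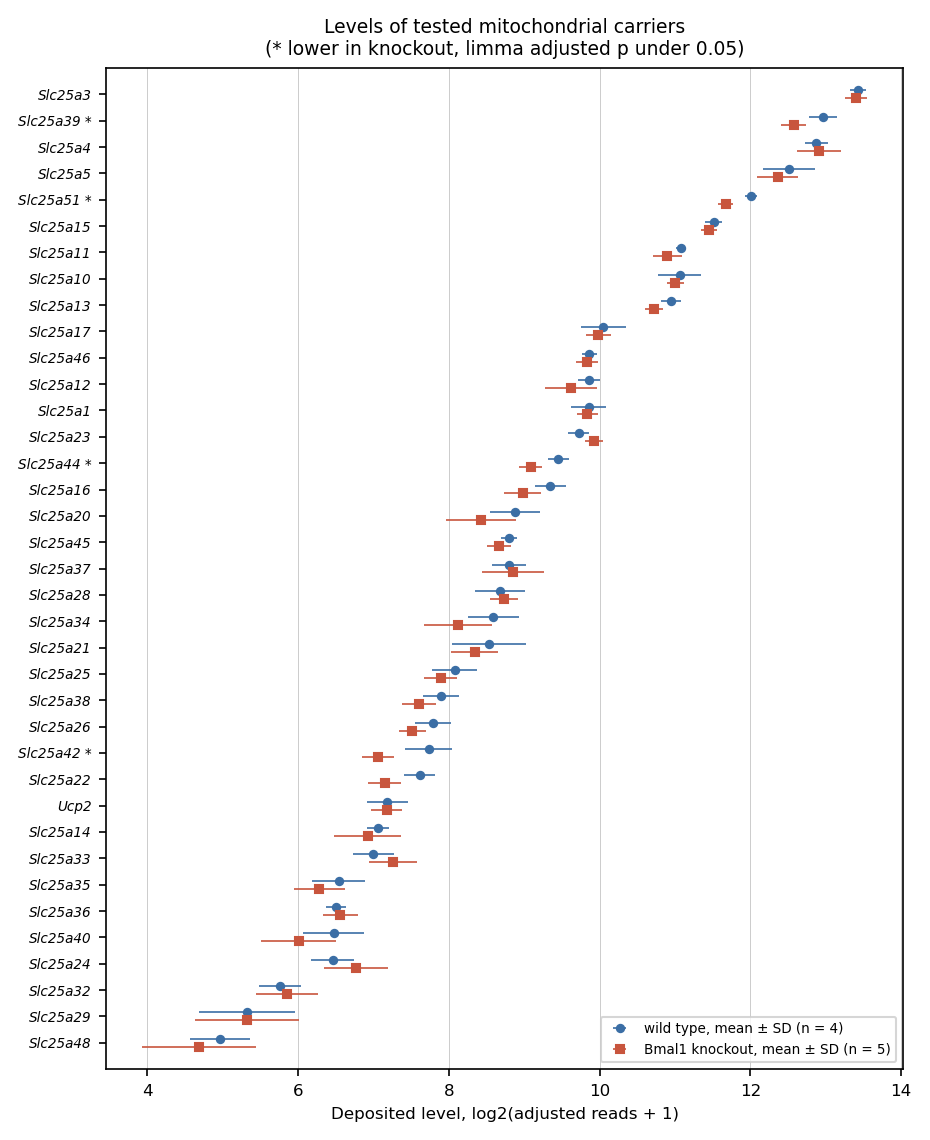
Levels of tested carriers, log2(adjusted reads + 1), as mean ± SD over 4 wild-type (circles) and 5 Bmal1 knockout libraries (squares), ordered by the wild-type mean. Levels run from 13.43 for Slc25a3 to 4.97 for Slc25a48 in wild type, and the 4 genes marked with an asterisk were lower in knockout.

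The first comparison was between genotypes. Every gene was fitted with limma, which tests the mean difference with a spread moderated over all genes, and p-values were adjusted by Benjamini-Hochberg over all 13481 genes. Of the 38 tested carriers 4 fell in knockout (adjusted p under 0.05): Slc25a42, Slc25a39, Slc25a44 and Slc25a51. None rose by limma, and none was higher at an unadjusted p under 0.05, where 9 were lower. The 4 lower carriers were 10.5% of those tested, beside 8.2% of all genes called lower, a share near the background. Over all genes 6.16% were called higher, and the unadjusted threshold was passed by 14.6% of genes downwards and 12.9% upwards. The groups did not overlap for 3 carriers, all lower in knockout (7.89%), beside 8.46% of all genes in that direction. No carrier was higher in every knockout than in every wild type, beside 5.86% of all genes.

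Differences of the carriers were small and mostly negative. Log2 differences (knockout minus wild type) ran from -0.68 for Slc25a42 to 0.31 for Slc25a24, with a median of -0.15, beside 0.0002 over all genes tested. On the deposited scale 28 of 38 carriers (73.7%) lay below 0, beside 6739 of all 13481 genes. The number below 0 was 21 when values were scaled to the library total without Rn45s, beside 37.1% of all genes. That scaling moved the median of all genes to 0.105 and that of the carriers to -0.04. The carriers' median minus that of all genes was -0.15 there. Without wild type 1 the carriers' median was -0.07 and 24 of 38 lay below 0, beside -0.0039 and 50.5% over all genes. The summed proximal tubule markers were also lower in every knockout than in any wild type, and their part in the lower carriers was not tested.

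**Figure D2:**
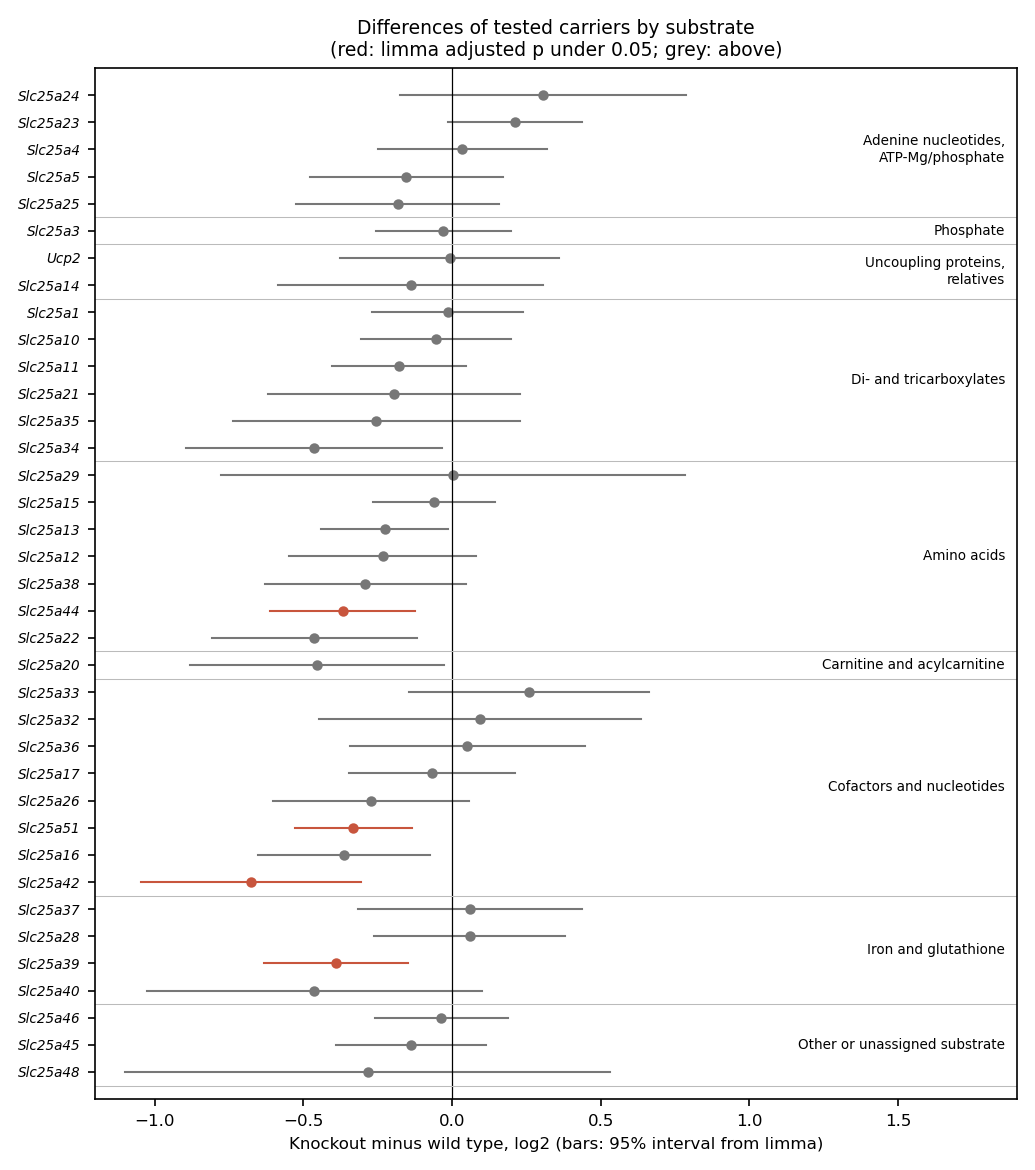
Log2 difference, knockout minus wild type, for tested carriers grouped by substrate, with the 95% interval from limma as bars. The 4 carriers with an adjusted p under 0.05, drawn in red, are Slc25a42, Slc25a39, Slc25a44 and Slc25a51, and all lie below 0.

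Among carriers of cofactors and nucleotides, 2 of 9 tested members fell. Slc25a42, which brings coenzyme A into the matrix in exchange for adenine nucleotides, was at 7.75, 8.08, 7.32 and 7.78 in wild type 1 to 4 and at 7.14, 6.76, 6.94, 7.11 and 7.33 in knockout 1 to 5. Knockout 5 and wild type 3 met at 7.33 and 7.32, and the other knockouts lay below every wild type. The log2 difference was -0.68 (SE 0.18, limma adjusted p = 0.0147), which puts the knockout level at 62.6% of wild type, the lowest ratio of the tested carriers. The call held in 21 of 23 alternatives of the fit. It was lost without wild type 2 and knockout 4 together (-0.57, adjusted p = 0.0569) and without knockout 2 and knockout 5 together (-0.67, adjusted p = 0.0521), but in no setting that left out a single library.

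Slc25a51, the carrier of NAD into mitochondria, was among the most abundant members. It read 11.93, 11.96, 12.11 and 12.02 in wild type 1 to 4 and 11.82, 11.60, 11.61, 11.61 and 11.74 in knockout 1 to 5. All 5 knockouts lay below all 4 wild types, and both groups were tight. The difference was -0.33 (SE 0.094, limma adjusted p = 0.0237), or 79.5% of the wild-type level. The limma call was lost without wild type 3 (-0.30, adjusted p = 0.0722), wild type 4 (-0.33, 0.0631), knockout 2 (-0.31, 0.0586), knockout 3 (-0.32, 0.0620) or knockout 4 (-0.32, 0.0598). It was also lost under each of the 4 other scalings tried, as listed in the closing section.

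The other 7 carriers of cofactors and nucleotides did not pass. Slc25a16, linked to coenzyme A import, had the largest decrease of these, -0.36 (SE 0.14, limma adjusted p = 0.0902). It passed without wild type 2 (-0.46, adjusted p = 0.0284) or knockout 1 (-0.43, 0.0475). The S-adenosylmethionine carrier Slc25a26 was at -0.27 (SE 0.16) and the peroxisomal carrier Slc25a17 at -0.07. The folate and FAD carrier Slc25a32 was at 0.09, and the pyrimidine nucleotide carriers Slc25a33 and Slc25a36 at 0.26 and 0.05. Their adjusted p-values were 0.278 or above. Slc25a17, Slc25a32 and Slc25a36 changed sign under some alternatives. Exons of Slc25a26 overlap Lrig1 on the other strand.

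In the iron and glutathione group 1 of 4 members fell. Slc25a39, which imports glutathione into mitochondria, was at 13.11, 13.14, 12.82 and 12.79 in wild type 1 to 4 and at 12.62, 12.34, 12.72, 12.47 and 12.72 in knockout 1 to 5. Every knockout was below every wild type, the nearest pair being knockout 5 at 12.72 and wild type 4 at 12.79. The difference was -0.39 (SE 0.12, limma adjusted p = 0.0301), or 76.3% of wild type, in the second most abundant carrier. The limma call was lost without wild type 1 (-0.34, adjusted p = 0.0913), wild type 2 (-0.33, 0.0659), knockout 2 (-0.33, 0.0846) or knockout 4 (-0.36, 0.0767), and under the 4 other scalings. It was also lost with no filter on low values (adjusted p = 0.0547).

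The close relative of Slc25a39, Slc25a40, was far less abundant, with a mean of 90.4 adjusted reads in wild type beside 8051, and more variable. It had a difference of -0.46 (SE 0.27, limma adjusted p = 0.282). The iron importers Slc25a37 (mitoferrin 1, the form of red cell precursors) and Slc25a28 (mitoferrin 2) were at 0.06 (SE 0.18) and 0.06 (SE 0.15). Both changed sign in some alternatives. In wild type Slc25a37 read 8.79 ± 0.23 (SD, n = 4) and in knockout 8.85 ± 0.42 (SD, n = 5), with the highest value, 9.55, in knockout 4, the library with the largest globin share (3.56%). Of 6 red blood cell markers none passed the test, and their sum was 55948 to 154541 adjusted reads in wild type and 78608 to 338080 in knockout. With the globin share as a covariate the difference of Slc25a37 was -0.23 (limma adjusted p = 0.372), beside 0.06 without it. With the Rn45s share as a covariate it was -0.25 (limma adjusted p = 0.373). Beyond these fits the part of blood in the level of Slc25a37 was not tested.

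Of 7 tested amino acid carriers 1 fell. Slc25a44, a carrier of branched-chain amino acids, was at 9.61, 9.31, 9.52 and 9.36 in wild type 1 to 4 and at 9.33, 8.92, 8.99, 9.09 and 9.09 in knockout 1 to 5. Knockout 1 lay just above wild type 2, and the other 4 knockouts below every wild type. The difference was -0.37 (SE 0.12, limma adjusted p = 0.0414), or 77.6% of wild type. This was the least stable of the 4 calls. It was lost without wild type 1 (-0.31, limma adjusted p = 0.121), wild type 3 (-0.34, 0.101), wild type 4 (-0.40, 0.0627), knockout 2 (-0.33, 0.102), knockout 3 (-0.34, 0.0937), knockout 4 (-0.37, 0.0747) or knockout 5 (-0.37, 0.0671), and under the 4 other scalings.

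The glutamate carrier Slc25a22, singled out after its values were seen, did not pass the test although its 5 knockout values lay under its 4 wild-type values. It read 7.89, 7.41, 7.56 and 7.57 in wild type 1 to 4 and 6.81, 7.12, 7.32, 7.36 and 7.13 in knockout 1 to 5. Its difference was -0.46 (SE 0.16, limma adjusted p = 0.0679), and it passed without wild type 2 (-0.53, adjusted p = 0.0454). The aspartate-glutamate carriers of the malate-aspartate shuttle, Slc25a12 and Slc25a13, were both at -0.23 (SE 0.15 and 0.10, adjusted p = 0.340 and 0.156). Slc25a38, the glycine carrier that feeds heme synthesis, was at -0.29 (SE 0.16). The ornithine carrier Slc25a15, at 11.51 in wild type the most abundant of this group, was at -0.06 (SE 0.097), and the basic amino acid carrier Slc25a29 at 0.003 (SE 0.37). The last 2 changed sign in some alternatives.

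**Figure D3:**
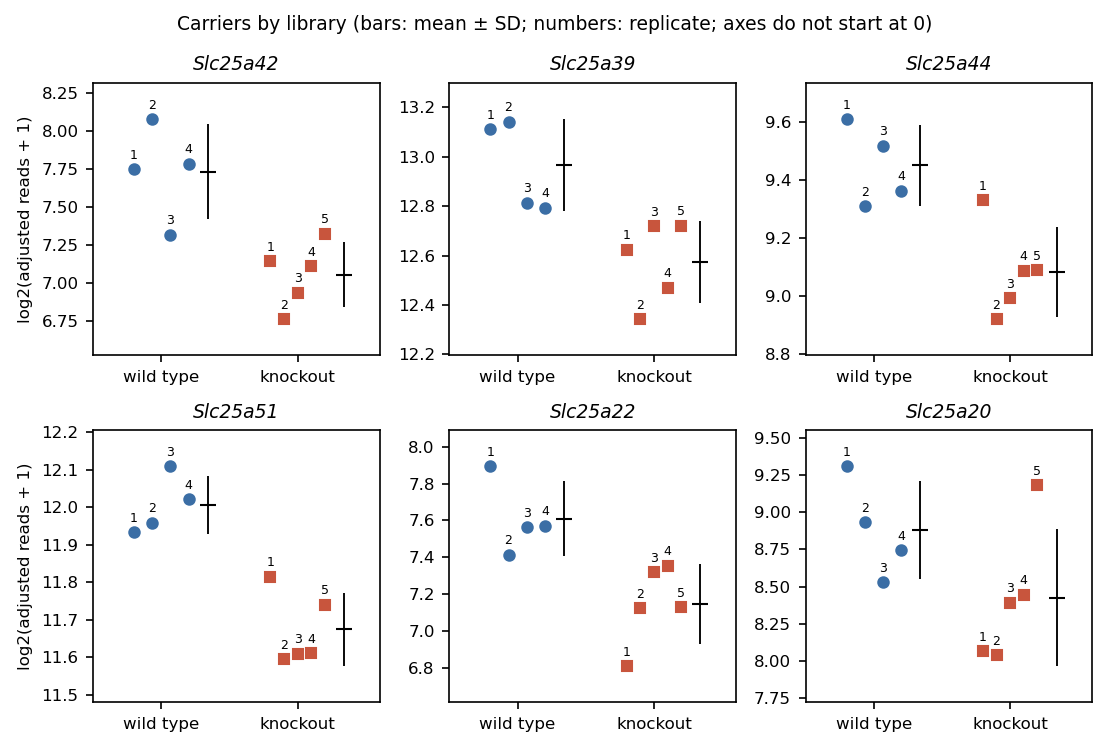
Values of 6 carriers in each library, log2(adjusted reads + 1), for 4 wild-type (circles) and 5 knockout libraries (squares), with replicate numbers and bars at mean ± SD. Slc25a39, Slc25a51 and Slc25a22 do not overlap between genotypes, and in Slc25a20 knockout 5 sits at 9.18 among the wild types.

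Slc25a20 carries acylcarnitines into the matrix, the step between the carnitine palmitoyltransferases Cpt1a and Cpt2 in fatty acid oxidation. It was at 9.31, 8.93, 8.53 and 8.74 in wild type 1 to 4 and at 8.07, 8.04, 8.39, 8.45 and 9.18 in knockout 1 to 5. Knockouts 1 to 4 lay below every wild type, while knockout 5 was above 3 of the 4. With all libraries the difference was -0.45 (SE 0.20) and did not pass (limma adjusted p = 0.156). Without knockout 5 it was -0.64 (adjusted p = 0.0171), and without knockouts 2 and 5 together -0.58 (adjusted p = 0.0681).

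Cpt1a, Cpt2 and Slc22a5, listed genes of the carnitine route, fell. Cpt1a, which makes acylcarnitines, was at 11.18 to 11.45 in wild type and 10.27 to 10.84 in knockout, a difference of -0.67 (SE 0.12, limma adjusted p = 0.000632). Cpt2, which turns them back to acyl-CoA in the matrix, was at -0.76 (SE 0.13, adjusted p = 0.000689), and the plasma membrane carnitine transporter Slc22a5 at -0.80 (SE 0.13, adjusted p = 0.000502). All 3 were lower in each knockout than in any wild type and passed in all 23 alternatives of the fit. Of the 5 listed genes of this route 3 fell and none rose, beside 8.2% of all genes called lower and 6.16% higher. The list was chosen with earlier results of these data known, so these shares describe the list and do not test the route. The other listed genes, Crat at -0.26 (SE 0.14) and Cpt1b at 0.29 (SE 0.26), did not pass (limma adjusted p = 0.237 and 0.521). Within the knockouts Cpt1a and Cpt2 had their highest values, 10.84 and 9.97, in knockout 5, as Slc25a20 did. In knockout 2 Slc25a20 and Cpt1a had their lowest values of the 9 libraries, 8.04 and 10.27, and Cpt2 was at 9.26.

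Knockout 5 also had the highest level of Ucp1 and of fat cell genes. Ucp1, the uncoupling protein of brown fat, was at 0.59, 2.43, 0.00 and 0.20 in wild type 1 to 4 and at 0.00, 7.00, 2.60, 2.25 and 10.29 in knockout 1 to 5. It thus stood out in knockouts 5 and 2 and was at or near the floor elsewhere, and it failed the filter with an x of at least 10 in 2 libraries. Adipoq, Cidea and Cox8b were singled out from the marker lists after their values were seen. Adipoq, the fat cell hormone adiponectin, reached 9.06 in knockout 5 and 6.44 in knockout 2, and at most 4.69 elsewhere. Cidea, a lipid droplet protein of brown fat, reached 9.77 and 5.91, and the brown fat subunit Cox8b 9.11 and 6.00. In knockouts 3 and 4 Cox8b was at 4.593 and 3.516, beside at most 3.415 in wild type. Cidea was at 3.709 and 2.551 there, beside at most 2.629 in wild type. In knockout 1 Cox8b and Cidea were at 2.119 and 1.337, within the range of wild type.

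Both fat lists were present in full in the files. The 6 fat cell markers summed to 714 to 999 adjusted reads in wild type and 775 to 2822 in knockout. The 6 brown fat markers summed to 296 to 439 and 375 to 1990, and Zic1 among them was at 0 in all 9 libraries. Pnpla2 and Cox7a1, which hold most of these sums outside knockout 5, were at 9.47 to 10.62 and 8.19 to 8.93 over the 9 libraries, highest in knockout 5. Dio2 of the brown fat list, an enzyme that activates thyroid hormone, was at 0.00 to 3.07 in wild type and 3.33 to 5.68 in knockout, with its highest values in knockouts 5, 4 and 1. It met the filter only through knockout libraries, so its test is not used. The part of fat tissue in the levels of Slc25a20, Cpt1a or Cpt2 was not tested.

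**Figure D4:**
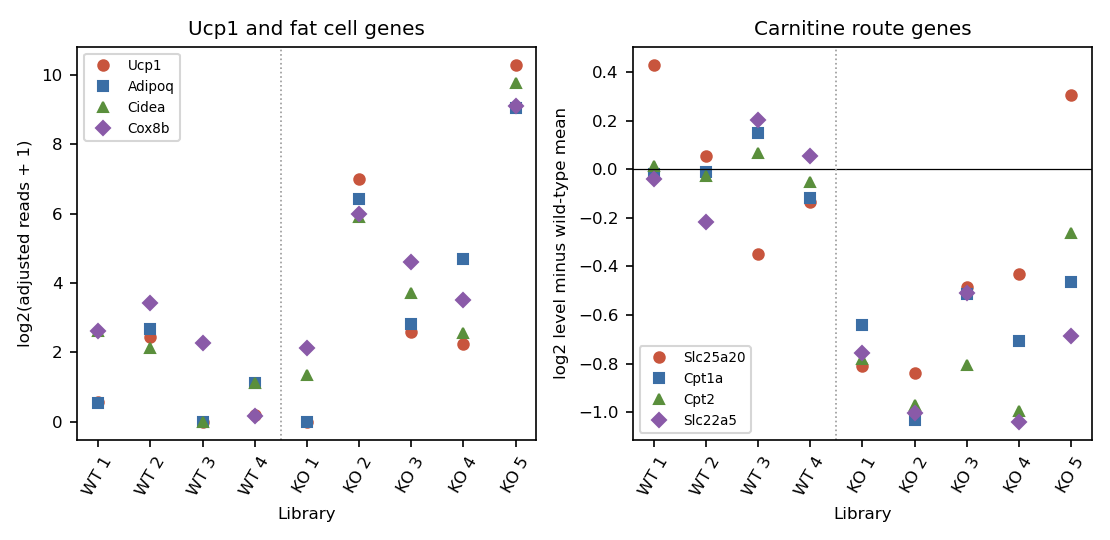
Left, Ucp1 and the fat cell genes Adipoq, Cidea and Cox8b in each library, log2(adjusted reads + 1). Right, Slc25a20, Cpt1a, Cpt2 and Slc22a5 as log2 level minus the mean of the 4 wild types; Ucp1 peaks at 10.29 in knockout 5, where Slc25a20 is the only one of the 4 carnitine genes above the wild-type mean.

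The other uncoupling proteins showed no call. Ucp2, which is expressed in many tissues and in immune cells, was at 7.51, 7.31, 6.99 and 6.92 in wild type 1 to 4 and at 6.89, 7.14, 7.20, 7.48 and 7.18 in knockout 1 to 5. The groups covered the same range, with a difference of -0.01 (SE 0.18, 95% interval -0.38 to 0.36, limma adjusted p = 0.982). Exons of Ucp2 overlap Dnajb13 on the other strand, so its reads are uncertain in that respect. Ucp2 changed sign in some alternatives. Ucp3, the form of skeletal muscle, was at 1.10, 2.04, 0.00 and 0.01 in wild type 1 to 4 and at 0.00, 0.00, 0.00, 0.03 and 1.88 in knockout 1 to 5, too low to test. The 6 skeletal muscle markers summed to 35.2 to 132 adjusted reads in wild type and 16.1 to 75.4 in knockout. Slc25a14 was at -0.14 (SE 0.21), and Slc25a27 and the kidney carrier Slc25a30 were below the filter, at no more than 2.63 and 3.48 in any library.

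None of the abundant carriers of ATP synthesis passed the test. The phosphate carrier Slc25a3 was at 13.54, 13.29, 13.47 and 13.42 in wild type 1 to 4 and at 13.56, 13.32, 13.44, 13.19 and 13.49 in knockout 1 to 5. The ranges overlapped, and the difference was -0.03 (SE 0.11, 95% interval -0.26 to 0.20, limma adjusted p = 0.895). Slc25a4, the translocase of heart and muscle, was at 13.04, 12.75, 12.75 and 12.97 against 13.29, 13.13, 12.70, 12.80 and 12.63, again with full overlap. Its difference was 0.03 (SE 0.13, 95% interval -0.25 to 0.32).

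Slc25a5, the translocase of most other tissues, read 12.97, 12.17, 12.38 and 12.53 in wild type 1 to 4 and 12.81, 12.36, 12.13, 12.18 and 12.33 in knockout 1 to 5. The highest value of each genotype was in replicate 1, and the ranges overlapped. Its difference was -0.15 (SE 0.15, 95% interval -0.48 to 0.17, limma adjusted p = 0.569). A pseudogene copy, Slc25a5-ps, is annotated, and how reads shared between copies were counted is not stated. Slc25a3, Slc25a4 and Slc25a5 each changed sign in some alternatives, so no direction is given for them.

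Carriers of ATP-Mg against phosphate, which set the size of the matrix nucleotide pool, were not called either. Slc25a23 was at 0.21 (SE 0.11, limma adjusted p = 0.211), Slc25a24 at 0.31 (SE 0.23) and the calcium-responsive Slc25a25 at -0.18 (SE 0.16). Exons of Slc25a25 overlap Naif1 on the other strand. Slc25a41 and the testis translocase Slc25a31 were listed at 0 in all 9 libraries.

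All 6 carriers of di- and tricarboxylates had differences below 0 on the deposited scale, and none passed. The lowest was Slc25a34, of uncertain substrate, at -0.47 (SE 0.20, limma adjusted p = 0.147), followed by its relative Slc25a35 at -0.25 (SE 0.23). The 2-oxoadipate carrier Slc25a21 was at -0.20 (SE 0.20) and the oxoglutarate-malate carrier Slc25a11, part of the malate-aspartate shuttle, at -0.18 (SE 0.11). The dicarboxylate carrier Slc25a10 and the citrate carrier Slc25a1 lay near 0, at -0.05 (SE 0.12) and -0.01 (SE 0.12). Slc25a1, Slc25a10 and Slc25a21 changed sign in some alternatives. Exons of Slc25a11, Slc25a21 and Slc25a35 overlap Rnf167, Pax9 and Rangrf on the other strand.

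Among members with other or unassigned substrates, the outer membrane protein Slc25a46 was at -0.04 (SE 0.11), Slc25a45 at -0.14 (SE 0.12) and Slc25a48 at -0.28 (SE 0.39), with adjusted p of 0.499 or above. Slc25a46 and Slc25a48 changed sign in some alternatives. Exons of Slc25a46 overlap B930094E09Rik on the other strand. Slc25a47, Slc25a43, Slc25a53 and Slc25a54 of this group, and Slc25a2 and Slc25a18 of the amino acid carriers, were below the filter and not tested. Of these 6, Slc25a47, a carrier known from liver, was the highest, at 2.08 to 3.43 in wild type and 1.88 to 4.14 in knockout. The remaining 5 did not exceed 2.67 in any library.

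Balance between carriers of related substrates was compared within libraries, which removes library scaling. For 8 pairs with both members tested, the difference of log2 levels was taken in each library and compared by an exact permutation test over all 126 splits (two-sided, smallest possible p 0.00794). No pair passed, before or after adjustment over the 8 pairs. After adjustment a single pair could not pass even at the smallest possible p. Slc25a23 over Slc25a25 had the lowest exact permutation p, 0.127 (adjusted 0.794), with a shift of 0.39 from 1.64 ± 0.35 (SD, n = 4) to 2.04 ± 0.26 (SD, n = 5). Slc25a4 over Slc25a5 shifted by 0.19, from 0.36 ± 0.22 to 0.55 ± 0.18 (exact permutation p = 0.198). Slc25a39 over Slc25a40 (0.07) and Slc25a12 over Slc25a13 (-0.01) moved by far less than the spread between libraries.

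Proteins that work with the carriers were taken from a list of 42 genes, chosen with earlier results of these data known. Of these genes 40 were in the files and tested, and their shares describe the list only. By limma 6 fell and 1 rose, beside 8.2% lower and 6.16% higher over all genes, with a median of -0.12 beside 0.0002. Besides Cpt1a, Cpt2 and Slc22a5, these were Gpd2, the glycerol phosphate shuttle enzyme of the inner membrane (-0.64, SE 0.14, adjusted p = 0.00470), Timm9, a chaperone that guides carriers across the space between the membranes (-0.51, SE 0.11, adjusted p = 0.00298), and Mpc1, a subunit of the pyruvate carrier (-0.44, SE 0.13, adjusted p = 0.0245). Sfxn3, a sideroflexin, rose by 0.58 (SE 0.17, adjusted p = 0.0315).

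Timm9 was at 10.42 to 10.65 in wild type and 9.80 to 10.18 in knockout, without overlap, and passed in all 23 alternatives, as did Gpd2. Mpc1 lost its limma call without wild type 1 (-0.33, adjusted p = 0.0935), wild type 4 (-0.45, 0.0556) or knockout 3 (-0.39, 0.0706), and under the 4 other scalings (-0.39 to -0.32, adjusted p 0.0550 to 0.108). In all it was called in 12 of 23 alternatives. Sfxn3 lost it without wild type 3 (0.46, adjusted p = 0.113) or knockout 1, 3 or 5 (0.51 to 0.56, adjusted p 0.0653 to 0.0752). None of the 3 porins, 5 tested genes of the calcium uniporter or 7 regulators of mitochondrial gene expression passed.

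Promoters were read for short clock and hormone motifs, since Bmal1 binds E-boxes. RefSeq windows from 250 bases before to 50 after the start (build GRCm38.p6) matched 39 of 50 members, in 49 windows. The perfect E-box CACGTG, the same on both strands, was in windows of 7 members: Slc25a1, Slc25a13, Slc25a14, Slc25a15, Slc25a31, Slc25a33 and Slc25a36. That was 16.3% of the windows of members (8 of 49), beside 7.15% of all 32851 windows. The 8 include 2 overlapping windows of Slc25a14 that hold the same E-box. The 6 tested members with an E-box had log2 differences of -0.23 to 0.26, and none passed. TTANGTAA, a loose form of the D-box with any base at N, was in 1 member, Slc25a25 (2.04% of windows, 2.32% of all). It read TTAAGTAA there. AGGTCA, the core shared by ROR and other nuclear receptors, was in 6 members (12.2% of windows, 16.3% of all), and TGACGTCA, the cAMP response element, in 2 (4.08%, 1.79%). All were searched on both strands, no match overlapped another motif in the windows printed here, and a match is a description of letters only.

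Windows of 5 carriers are shown. They cover the called genes with an entry (Slc25a42 and Slc25a39), 2 carriers with a perfect E-box, and the carrier with TTANGTAA. Slc25a44 and Slc25a51 have no entry. Capitals mark the motifs: CACGTG in Slc25a13 and Slc25a1, AGGTCA read on the other strand in Slc25a39, and TGACGTCA followed by TTANGTAA in Slc25a25. Slc25a42 holds none of the 4 motifs in this window. The positions are chr8:70212232-70212531, - strand (Slc25a42), chr11:102407468-102407767, - strand (Slc25a39), chr6:6217124-6217423, - strand (Slc25a13), chr16:17928170-17928469, - strand (Slc25a1), chr2:32424017-32424316, - strand (Slc25a25).
Slc25a42: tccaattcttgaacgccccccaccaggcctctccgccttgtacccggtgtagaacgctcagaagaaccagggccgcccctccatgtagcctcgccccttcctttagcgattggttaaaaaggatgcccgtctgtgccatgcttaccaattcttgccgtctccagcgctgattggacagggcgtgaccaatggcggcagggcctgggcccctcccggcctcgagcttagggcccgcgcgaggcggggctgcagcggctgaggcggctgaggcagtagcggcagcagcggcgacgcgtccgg
Slc25a39: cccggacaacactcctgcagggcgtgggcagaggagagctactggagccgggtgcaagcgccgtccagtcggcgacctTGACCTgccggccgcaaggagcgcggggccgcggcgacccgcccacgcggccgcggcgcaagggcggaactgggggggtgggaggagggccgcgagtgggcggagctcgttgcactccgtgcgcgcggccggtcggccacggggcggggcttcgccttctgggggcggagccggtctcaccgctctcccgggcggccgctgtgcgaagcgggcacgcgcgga
Slc25a13: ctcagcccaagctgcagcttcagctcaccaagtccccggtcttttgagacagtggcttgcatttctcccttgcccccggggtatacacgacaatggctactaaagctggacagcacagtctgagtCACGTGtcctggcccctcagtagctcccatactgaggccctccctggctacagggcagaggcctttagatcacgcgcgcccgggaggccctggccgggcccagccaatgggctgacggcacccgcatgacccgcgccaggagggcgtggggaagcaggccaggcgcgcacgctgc
Slc25a1: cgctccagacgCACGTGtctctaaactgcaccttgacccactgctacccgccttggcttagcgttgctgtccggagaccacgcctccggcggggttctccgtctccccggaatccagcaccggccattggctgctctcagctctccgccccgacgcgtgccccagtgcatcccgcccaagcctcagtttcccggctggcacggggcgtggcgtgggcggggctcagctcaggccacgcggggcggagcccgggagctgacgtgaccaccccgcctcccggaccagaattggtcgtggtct
Slc25a25: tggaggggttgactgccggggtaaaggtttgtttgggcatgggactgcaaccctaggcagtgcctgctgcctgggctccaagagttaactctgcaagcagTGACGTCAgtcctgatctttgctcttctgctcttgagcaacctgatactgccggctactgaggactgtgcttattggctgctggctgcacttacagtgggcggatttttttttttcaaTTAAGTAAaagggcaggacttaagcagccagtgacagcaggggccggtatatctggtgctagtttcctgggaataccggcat

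By position, the 4 lower carriers lie apart in the genome (GRCm38): Slc25a42 on chromosome 8 from 70184340 to 70212305, Slc25a39 on chromosome 11 from 102402985 to 102407946, Slc25a44 on chromosome 3 from 88410498 to 88425139 and Slc25a51 on chromosome 4 from 45395923 to 45408766, all on the - strand. No exon of theirs overlaps another protein-coding gene in the GENCODE M21 annotation, and Slc25a51 shares exon positions with the small RNA gene Gm25692.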

How the data were processed

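Kidney RNA of 4 wild-type and 5 Bmal1 knockout libraries was made into QuantSeq 3′ libraries from 500 ng of total RNA, per the labels' protocols. Bowtie2, bedtools and mouse build mm10 are named without versions, per the submitters' processing notes. The annotation, the normalization and how shared or antisense reads were counted are not stated there. The deposited values are log2(x + 1) with 1 table per library, x being reads adjusted by the authors; the unit was read from the values. Such values are not counts, so no count model was used.

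A gene was tested where x was at least 10 in 4 or more libraries. The linear model was limma 3.58.1 under R 4.3.3 (genotype only, prior variance trended on mean level, two-sided tests, Benjamini-Hochberg over 13481 genes, threshold 0.05), after a test on simulated data. Differences of log2(x + 1) understate changes of low genes. Pairs of carriers were compared by exact permutation. Groups and replicate numbers came from the labels.

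Same-numbered libraries of the 2 genotypes had deviations correlated at -0.00701 to 0.151, and differently numbered ones at -0.161 to 0.0885. The highest value was that of replicate 1. The ranges overlapped, and the numbers were not taken as pairs in the main fit. Members, substrate groups and lists were chosen with earlier results of these data known. The rule gave values in each library for carriers past the threshold, the 5 most abundant and Ucp1, Ucp2 and Ucp3; other carriers are given by substrate group, and partner genes where past the threshold. Slc25a22, Slc25a20 and fat genes were added after their values were seen. Positions came from GENCODE M21 (GRCm38), where all 50 symbols matched; 1 tested carrier that did not pass is counted but not reported singly here; exons of 8 members overlap another protein-coding gene, and their values are uncertain in that respect. Alternatives covered scaling, filter, pseudocount, prior, covariates and left-out libraries; leaving out knockouts 2 and 5 together was chosen after seeing the data.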

Additional observations from a re-analysis of the deposited data

Results flagged for a closer look

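Slc25a28, mitoferrin 2, had 1 library far from the rest of its group: knockout 2 was at 8.40 while the other 4 knockouts lay between 8.78 and 8.84. This was the only such case among 76 groups looked at (38 carriers in each genotype), and chance alone flags about 1 group in 20.

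Ucp1 was below the filter and entered only the alternative fit without a filter, where 0 members were called higher. Yet Ucp1 reached 7.00 in knockout 2 and 10.29 in knockout 5, above the highest wild-type value of 2.43. Adipoq, Cidea and Cox8b were highest in the same 2 libraries.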

How the results depend on the processing

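The 4 lower carriers were below wild type in all 23 alternatives of the limma fit, but their calls depended on the setting. Slc25a42 was called in 21 of the 23, Slc25a39 in 9, Slc25a51 in 9 and Slc25a44 in 8. Of the 4, 1 was called with quantile normalization, 1 with scaling to the library total, 1 with that total without Rn45s, 1 with upper-quartile scaling, 1 with a prior without trend, 1 with the Rn45s share and 1 with the globin share as a covariate, each time Slc25a42. Without wild type 2 and knockout 4 together 2 carriers were called, Slc25a44 and Slc25a22, so that only 1 of the 4 kept its call. Without knockouts 2 and 5 together 0 were called; leaving out single libraries gave 1 to 5. Under the 4 scalings the limma adjusted p ranged from 0.0732 to 0.152 for Slc25a39, 0.0838 to 0.138 for Slc25a44 and 0.0562 to 0.158 for Slc25a51. No carrier was called higher in any alternative, and 3 of the 34 others (Slc25a16, Slc25a20, Slc25a22) were called lower in some; 17 of the 34 changed sign at least once. The median of the carriers moved to -0.0414 with scaling to the total without Rn45s, where that of all genes was 0.105. Without wild type 1 it was -0.0726, beside -0.0039 over all genes. The carriers' median was -0.1746 to -0.0414 over the 23 alternatives. Over all genes 1222 were called with the Rn45s share, 1194 with the globin share and 1068 without knockouts 2 and 5, against 1937, and 1426 to 2277 without single libraries. Partner genes called higher were 0 with quantile normalization, 0 with a prior without trend, 0 without knockouts 2 and 5, 0 with the replicate block, 2 with the Rn45s share and 0 to 1 without single libraries. The call counts of the 8 pairs were 0 in all 12 alternatives. A single pair could not pass after adjustment, and leaving out a library raises the smallest possible p, so these counts say little about stability.

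With the replicate number as a block, over replicates 1 to 4 of each genotype, which drops knockout 5, 6 carriers were called lower and 0 higher, Slc25a20 (-0.64, limma adjusted p = 0.0311) and Slc25a16 (-0.42, 0.0439) among them. Not every library correlated best with its own number. For the pairs that design cannot reach p under 0.05. The 12 carriers below the filter were not tested in the main fit: Slc25a31 and Slc25a41 were listed at 0 throughout, and of the other 10 all but Ucp1 were low in every library. The alternative without a filter took in 48 members and called 3 lower and 0 higher.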
